A study of Arabidopsis thaliana with 12 samples.

Results

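The genes described here encode expansins, xyloglucan endotransglucosylase/hydrolases (XTHs) and trichome birefringence-like (TBL) proteins of the model plant Arabidopsis thaliana. They were chosen by name: a probe set was taken where the platform annotation gives it 1 gene alone and the symbol of that gene starts with EXPA, EXPB, EXLA or EXLB, or is XTH or TBL with a number. This gave 49 of the 22746 probe sets that are not array controls, or of the 13513 that name 1 gene, and each of the 49 has a gene of its own. There were 18 expansins (10 EXPA, 4 EXPB, 3 EXLA and 1 EXLB), 9 XTH and 22 TBL genes, so none of these families is complete here. The series concerns plants kept at a low chronic level of caesium-137, a beta emitter whose decay is followed by gamma rays. RNA of shoots and roots was hybridised to 12 Affymetrix ATH1 arrays, with 3 arrays for each of control shoots, cs shoots, control roots and cs roots. The label cs is taken from the series title to mean exposure to caesium-137 (Cs below), and all samples carry the developmental stage 1.0. The labels give no plant line, age, dose, length of exposure or number of plants per sample, and do not tell whether replicates were grown apart. The p-values therefore rest on the spread between these arrays, which may be technical.

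The plant cell wall is a network of cellulose microfibrils held in a matrix of hemicelluloses and pectins, and a growing cell must loosen this network without breaking it. Expansins loosen walls without cutting polysaccharides, acting where cellulose and matrix polymers meet. XTH enzymes cut xyloglucan, the main hemicellulose of primary walls in this species, and rejoin the cut end to another chain or release it to water. TBL proteins include the acetyltransferases that add acetyl groups to wall polymers such as xylan, mannan and xyloglucan in the Golgi. All these families are large, and many members are known for expression in 1 organ or cell type, such as the root hair.

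Values are MAS5 signals, which are brightness values on a linear scale, and they are compared only within a probe set. Array medians lay between 41.1 and 49.6, and the small number of arrays limits the precision. Fold changes are log2 differences of log2(signal + 11) with a standard error (SE), and a gene is called where its limma p, adjusted by Benjamini-Hochberg over 15508 tested probe sets, is under 0.05. A probe set was tested if its mean in at least 1 organ reached the 40th percentile of that organ. Of the 49 genes 35 were tested: 13 expansins, 7 XTH and 15 TBL genes. Of these, 21 passed the filter in both organs, 12 in root alone and 2 in shoot alone. For the last 2 groups an organ difference was nearly a condition of being tested. The organ labels were checked on the photosynthesis genes RCA, PRK, LHCB4.1, PSAE-1, PSBW and PSBY, which were all lower in root, and on PYK10, a root beta-glucosidase, which was higher in root by 2.85 ± 0.28. PYK10 was the only 1 of 10 listed root markers with a probe set of its own in the annotation used. Of the root hair and xylem marker lists none of the genes had one. That annotation leaves 8730 probe sets without a gene, so the array itself may hold probes for them. The shoot arrays numbered 1, of control and of Cs plants alike, stood apart from the other 4 shoot arrays. Both lay on one side of those 4 in 41.1% of tested probe sets, and calls that change without them are given both ways.

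The first comparison asked in which organ each gene had the higher signal in control plants. Among the 21 genes bright in both organs, 13 were higher in root, 5 were higher in shoot and 3 were not called. Of all 11788 probe sets bright in both organs, 36.7% were called higher in root and 17.9% higher in shoot. Over the 35 tested genes the counts were 22, 7 and 6, where 38.0% and 22.3% of all tested probe sets were called. These counts describe the genes that passed the filter and not the 49, and the fit behind them does not use the replicate number. With that number as a block over both organs EXLA1, EXLB1 and EXPA20 were called as well. The median of the 35 log2 differences was 0.93, and that of all tested probe sets was 0.24. These medians are not like for like. The 35 hold 12 genes tested through root alone and 2 through shoot alone, where all tested probe sets hold 1860 of each. No root excess of the 35 is therefore read from them. In a bulk sample, fewer cells of a type and less RNA per cell cannot be told apart. Each of the 3 families held genes of both organs.

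**Figure D1:**
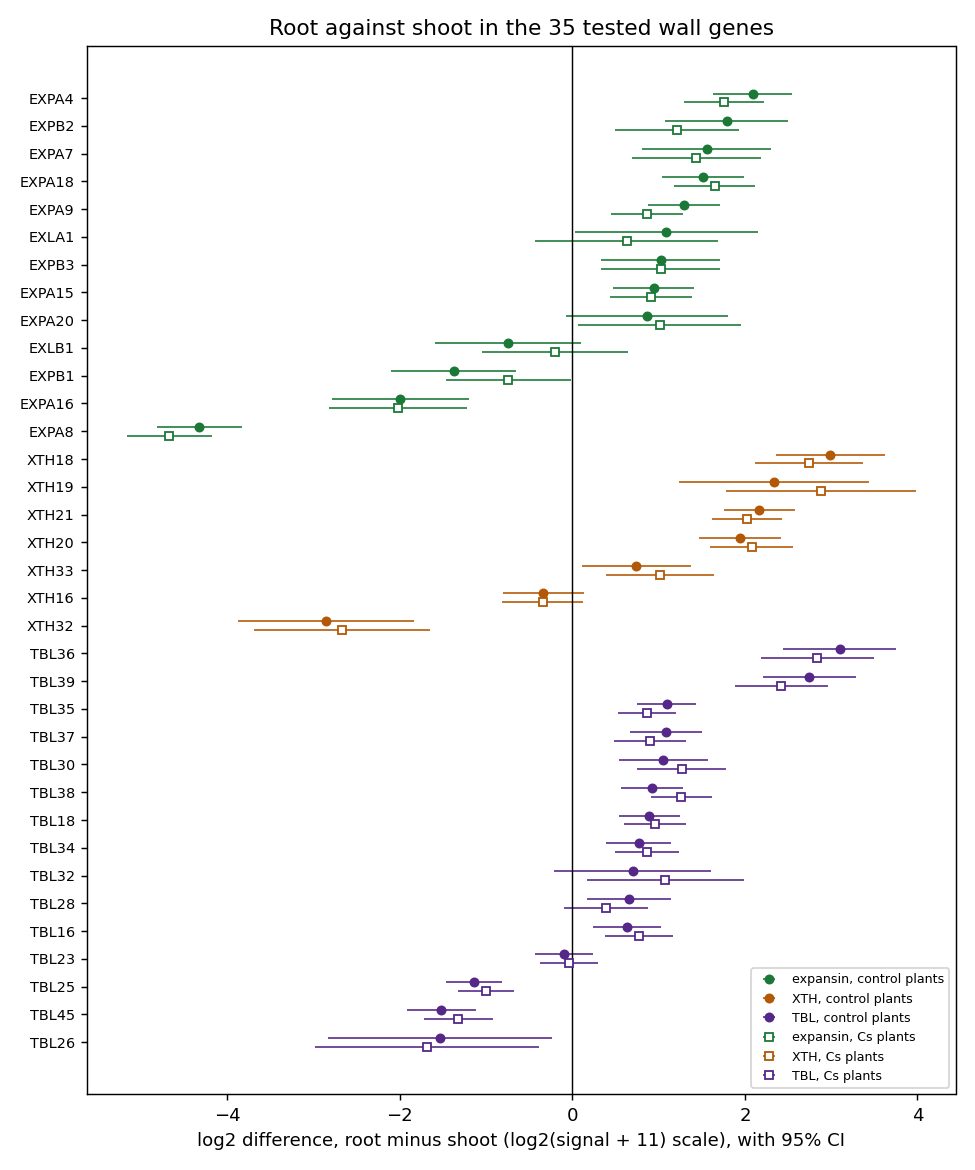
Log2 difference of root minus shoot for the 35 tested genes, ordered within each family, with filled circles for control plants, open squares for Cs plants and bars for the 95% confidence interval. The differences of control plants run from -4.32 for EXPA8 to 3.10 for TBL36, and no gene is called in opposite directions in control and Cs plants.

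Among the alpha-expansins, EXPA8 had the largest organ difference. EXPA8 (AT2G40610) had signals of 596, 604 and 506 in control shoots and 25.6, 15.3 and 13.9 in control roots. The groups were far apart, and the difference of -4.32 ± 0.23 was lower than that of all but 1.45% of tested probe sets (limma, adjusted p = 1.19e-08). EXPA16 (AT3G55500) was also a shoot gene, with 129, 71.4 and 74.0 in control shoots and 14.7, 13.0 and 14.2 in control roots. Its difference was -1.99 ± 0.37 (limma, adjusted p = 0.000481), and -1.74 without control shoot replicate 1. With a pseudocount of 2.75 or 44 the difference was -4.80 or -3.30 for EXPA8 and -2.44 or -1.20 for EXPA16. Roots of both genes lay under the root filter level of 31.2, and they were the 2 genes tested through shoot alone.

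EXPA4 (AT2G39700) ran the other way, with 239.7, 171 and 164 in control shoots and 819.5, 867 and 837 in control roots. Every root array was above every shoot array, by 2.09 ± 0.21 (limma, adjusted p = 2.99e-06). EXPA7 (AT1G12560) and EXPA18 (AT1G62980) are both known as expansins of root hair cells. EXPA7 had 39.7, 27.3 and 9.39 in control shoots and 83.0, 98.5 and 86.9 in control roots, a difference of 1.56 ± 0.34. EXPA18 had 36.7, 28.4 and 34.99 in control shoots and 130.2, 109 and 108 in control roots, a difference of 1.52 ± 0.22. The 2 root hair expansins thus differed between organs by nearly the same amount, and both were called, with adjusted p of 0.0018 and 6.70e-05 by limma. EXPA7 was tested through root alone, which nearly fixed its direction, while EXPA18 passed the filter in both organs. EXPA9 (AT5G02260) went from 71.6, 77.5 and 68.6 in control shoots to 213, 182 and 188 in control roots, or 1.30 ± 0.19. EXPA15 (AT2G03090) was called with a smaller difference of 0.94 ± 0.22. EXPA20 (AT4G38210) had 43.2, 2.82 and 24.1 in control shoots and 54.6, 33.2 and 44.1 in control roots, and these overlapped. It was not called (limma, adjusted p = 0.101), but was with the replicate number as a block over both organs (adjusted p = 0.0283). EXPA20, like EXPA7, was tested through root alone.

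Beta-expansins, the subfamily that includes the group 1 pollen allergens of grasses, were also divided. EXPB2 (AT1G65680) had 19.7, 19.9 and 28.7 in control shoots and 188, 49.9 and 117 in control roots, with a wide spread in root. It was higher in root by 1.79 ± 0.33 (limma, adjusted p = 0.000482), but was tested through root alone, which nearly fixed its direction. EXPB3 (AT4G28250) had 553, 229 and 285 in control shoots and 883, 575 and 634 in control roots, a difference of 1.02 ± 0.32. Its call was lost without control root replicate 1 (limma, adjusted p = 0.0586) or without control shoot replicate 2 (0.0682). EXPB1 (AT2G20750) was higher in shoot, with 235, 108 and 94.5 in control shoots and 34.4, 67.8 and 38.6 in control roots, or -1.37 ± 0.33 (limma, adjusted p = 0.00339). The expansin-like genes, whose function in the wall is not settled, were not called. EXLA1 (AT3G45970) had 1.09 ± 0.49 and EXLB1 (AT4G17030) -0.74 ± 0.39. With the replicate block over both organs both passed (limma, adjusted p = 0.0188 and 0.027), on the higher side in root for EXLA1 and in shoot for EXLB1. EXLA1 was tested through root alone, which nearly fixed its direction.

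Of the 7 tested XTH genes, 5 were higher in root, 1 was higher in shoot and 1 was not called. The 5 root genes were all tested through root alone, where 83.9% of all such probe sets were called higher in root. XTH18 (AT4G30280) was near the floor in shoots, with 2.26, 1.04 and 1.52 in control shoots against 134, 73.8 and 70.7 in control roots. XTH19 (AT4G30290) had 36.8, 18.5 and 5.45 in control shoots and 247, 106 and 89.4 in control roots. XTH20 (AT5G48070) had 10.2, 5.59 and 17.3 in control shoots and 88.0, 68.8 and 61.5 in control roots. These 3 closely related genes were each higher in all 3 root arrays, by 2.99 ± 0.29, 2.34 ± 0.51 and 1.95 ± 0.22. Their adjusted p by limma was 1.89e-06, 0.00156 and 7.79e-06. XTH21 (AT2G18800) had 0.744, 0.995 and 1.19 in control shoots and 36.5, 46.7 and 46.0 in control roots, which is a low signal in root and the floor in shoot. Its difference of 2.17 ± 0.19 moved with the pseudocount, being 3.61 with 2.75 and 0.95 with 44. XTH18 moved likewise, to 4.40 and 1.56, and XTH20 to 2.53 and 1.08. All 3 remained called.

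XTH33 (AT1G10550) was the weakest call, with 19.3, 5.43 and 22.3 in control shoots and 46.4, 33.6 and 19.3 in control roots. Its arrays overlapped, and the difference was 0.74 ± 0.29 (limma, adjusted p = 0.0417). With the replicate block in control arrays alone it did not pass (adjusted p = 0.0794), nor in 8 of the other 16 alternatives that tested it. XTH32 (AT2G36870) belongs to the clade of XTH31, an enzyme known to act as a xyloglucan hydrolase, and was the shoot gene of the family. It had 847, 253 and 233 in control shoots and 49.0, 38.1 and 38.8 in control roots, a difference of -2.85 ± 0.47 (limma, adjusted p = 0.000202). Control shoot replicate 1 stood far above the other 2 control shoots, and without it the difference was -2.27 and was still called. XTH16 (AT3G23730), at 93.2, 195 and 118 in control shoots and 92.7, 110.5 and 97.9 in control roots, had -0.34 ± 0.22 and was not called. It was called as lower in root without control shoot replicate 1 (-0.55, limma, adjusted p = 0.0362) and with array weights (-0.68).

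Of the 15 tested TBL genes, 10 were higher in root, 3 were higher in shoot and 2 were not called, beside 38.0% and 22.3% of all tested probe sets. TBL30, TBL32 and TBL34 were tested through root alone. TBL36 (AT3G54260) had the largest root excess of the TBL genes, with 41.1, 88.9 and 122 in control shoots and 821, 702 and 719.7 in control roots. It exceeded the shoot by 3.10 ± 0.30 (limma, adjusted p = 1.94e-06), and 1.74% of tested probe sets had a larger root excess. TBL39 (AT2G42570) followed with 43.8, 47.1 and 67.3 in control shoots and 326, 444 and 482 in control roots, or 2.75 ± 0.25 (limma, adjusted p = 1.03e-06). Both were bright in both organs, so neither was tested through 1 organ alone. The remaining 8 genes called for root had smaller differences, from 0.63 for TBL16 to 1.09 for TBL35.

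Some TBL proteins have known substrates, and the genes were sorted by them after their values were seen. TBL28, TBL30, TBL32, TBL34 and TBL35 belong to the group of xylan acetyltransferases. TBL28 and TBL35 were tested in both organs and were called higher in root. TBL30, TBL32 and TBL34 were tested through root alone, which nearly fixed their direction, and of these TBL30 and TBL34 were called. TBL35 (AT5G01620) had 42.1, 59.1 and 41.6 in control shoots and 108, 112 and 118 in control roots, a difference of 1.09 ± 0.16. TBL30 (AT2G40160) had 25.2, 12.6 and 12.4 in control shoots and 39.0, 66.1 and 35.4 in control roots, or 1.06 ± 0.24. TBL34 (AT2G38320) had 0.77 and TBL28 (AT2G40150) 0.66. TBL32 (AT3G11030) was not called, at 0.70 ± 0.42, and its probe set carries the suffix that Affymetrix gives to probes shared by several transcripts, so its signal is uncertain. TBL23, TBL25 and TBL26 are mannan acetyltransferases, and all 3 had lower means in root, with 2 called. TBL25 (AT1G01430) had 304, 325 and 252 in control shoots and 143, 121 and 117 in control roots, a difference of -1.14 ± 0.15 (limma, adjusted p = 3.29e-05). TBL26 (AT4G01080) had 307, 68.4 and 75.9 in control shoots and 30.1, 39.5 and 32.3 in control roots. Its difference of -1.54 ± 0.60 passed narrowly (limma, adjusted p = 0.0412). Without control shoot replicate 1 it was -0.89 and did not pass (limma, adjusted p = 0.182). With arrays numbered 2 and 3 alone it was -0.83 and was called. TBL26 was also not called without control root replicate 1, 2 or 3, with a pseudocount of 44, or with no filter. TBL23 (AT4G11090) had 101, 70.5 and 82.8 in control shoots and 80.8, 76.3 and 76.1 in control roots, -0.10 ± 0.16.

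The other TBL genes have no substrate named here. TBL45 (AT2G30010) was higher in shoot, with 202, 195 and 152 in control shoots and 59.0, 62.6 and 48.3 in control roots, or -1.52 ± 0.18 (limma, adjusted p = 1.46e-05). TBL37 (AT2G34070) had 58.2, 44.9 and 31.4 in control shoots and 114, 95.02 and 108 in control roots, or 1.09 ± 0.19. Every control root was above every control shoot for TBL37, and likewise for TBL38 (AT1G29050), TBL18 (AT4G25360) and TBL16 (AT5G20680). These had differences of 0.93, 0.89 and 0.63, and all 4 genes were called.

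**Figure D2:**
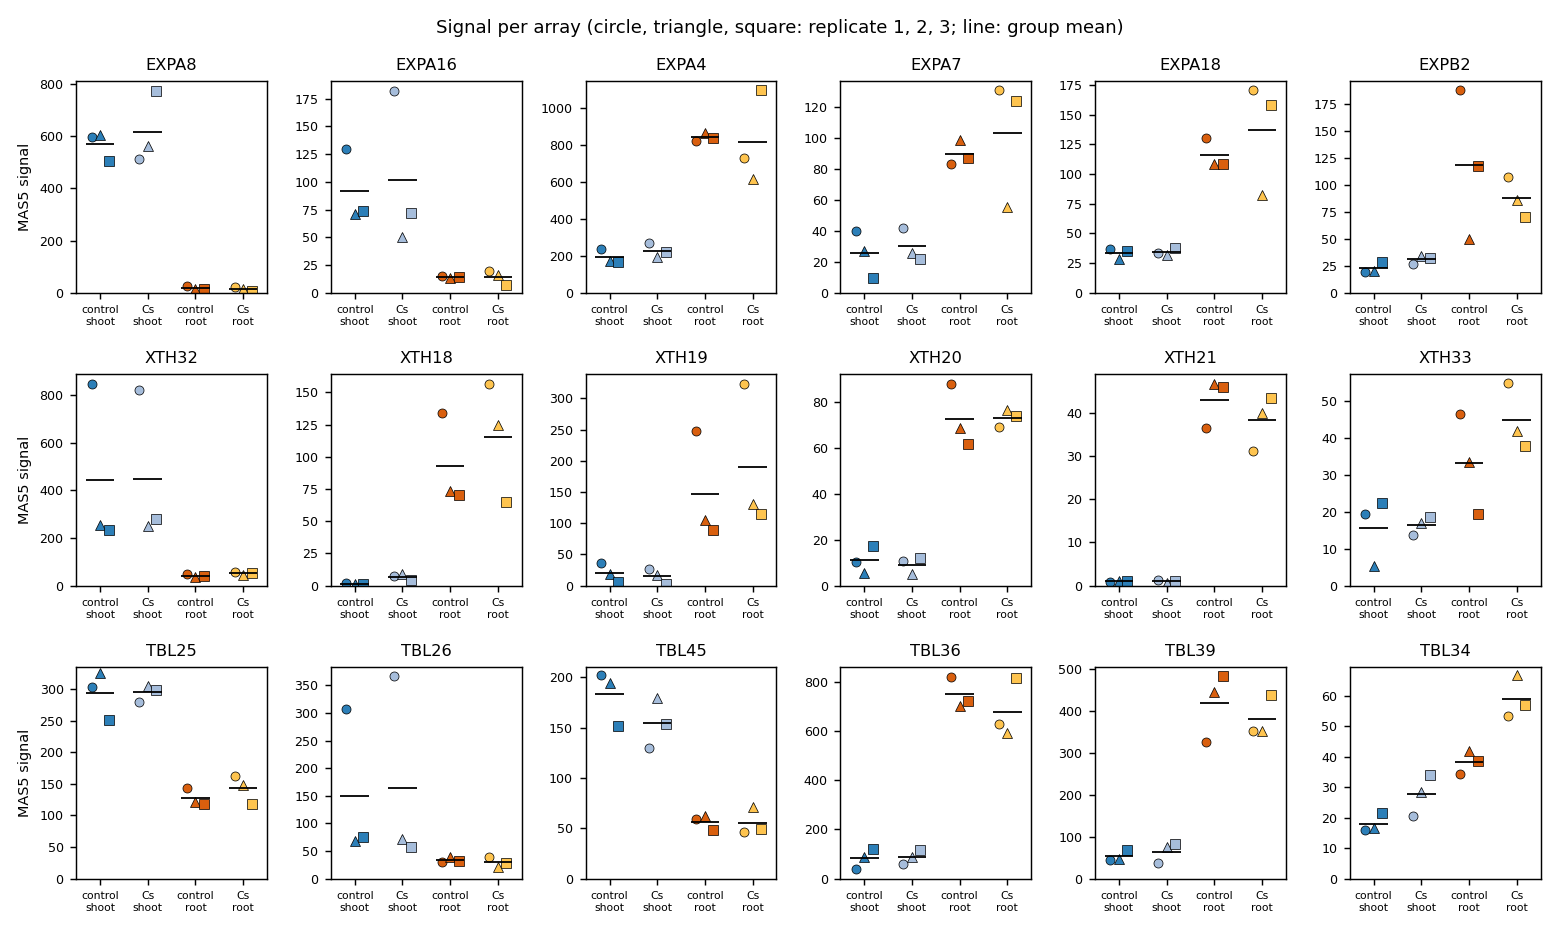
MAS5 signal of 18 genes in each of the 12 arrays, with circles, triangles and squares for replicates 1, 2 and 3, a line for the mean of each group, and a vertical axis from 0 in each panel. EXPA8, EXPA16, XTH32, TBL25, TBL26 and TBL45 are high in shoots and the rest high in roots, and the shoot circles of EXPA16, XTH32 and TBL26 stand far above the triangles and squares.

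The second comparison put the same question to the Cs plants, whose arrays the first did not use, although the fit shares 1 spread over all groups. Root was higher in 22 genes, shoot in 6, and 7 were not called, where 36.1% and 21.9% of all tested probe sets were called. In both kinds of plants 21 genes were called for root and 6 for shoot, 5 in neither and 0 in opposite directions. Across the 35 genes the differences in control and Cs plants correlated with a Pearson r of 0.984 and a Spearman rho of 0.911, as a description over genes that share the same arrays. The filter used the mean over the control and Cs arrays of an organ. For genes tested through 1 organ alone, among them EXPA8 and XTH19, the shared direction was thus nearly fixed, and no agreement is read from it. EXPA8 had 514, 563 and 774 in Cs shoots and 20.5, 14.2 and 7.04 in Cs roots, a difference of -4.67 ± 0.23. TBL36 had 59.1, 87.2 and 114 in Cs shoots and 626, 592 and 813 in Cs roots, or 2.84 ± 0.30. XTH19, with 27.2, 16.8 and 3.08 in Cs shoots and 323, 132 and 115 in Cs roots, had 2.88 ± 0.51. XTH32 had 821, 248 and 279 in Cs shoots and 56.7, 45.3 and 52.8 in Cs roots, or -2.67 ± 0.47, and -2.13 without Cs shoot replicate 1. Each of these 4 genes had the same direction as in control plants, with no overlap between organs. EXPA4 had 267, 193 and 223 in Cs shoots and 727, 616 and 1099.8 in Cs roots, or 1.76 ± 0.21. TBL39 had 37.0, 74.2 and 82.7 in Cs shoots and 352, 353 and 437 in Cs roots, or 2.42 ± 0.25. TBL25 had 280.1, 305 and 299 in Cs shoots and 162, 149 and 119 in Cs roots, or -0.999 ± 0.15. The organs were again apart in all 3. Of the 21 genes bright in both organs, 12 were called for root and 4 for shoot in Cs plants, where 34.3% and 17.6% of all such probe sets were.

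The 3 genes called in 1 kind of plant alone were EXPB1, TBL28 and TBL32. EXPB1 had 198, 93.2 and 119 in Cs shoots and 70.0, 65.0 and 87.0 in Cs roots, -0.74 ± 0.33 (limma, adjusted p = 0.0737, and 0.0259 with the replicate block in Cs arrays alone). Without Cs shoot replicate 1 its difference was -0.46. TBL28 had 0.40 ± 0.22 in Cs plants (limma, adjusted p = 0.148, and 0.0334 with the replicate block over both organs). TBL32 had 1.08 ± 0.42 (limma, adjusted p = 0.0422). The test of the difference between Cs and control plants called 0 of these 3. EXPA20 had 1.01 ± 0.43 and was called in Cs plants with the block over both organs (limma, adjusted p = 0.0139). TBL26 was called lower in Cs roots, at -1.69 ± 0.60, and lost its call without Cs shoot replicate 1 (limma, adjusted p = 0.118) or Cs root replicate 2 (0.0815) or 3 (0.0638). TBL26 kept its call with arrays numbered 2 and 3 alone. XTH33, tested through root alone, was higher in root in Cs plants by 1.01 ± 0.29 (limma, adjusted p = 0.00938). With arrays numbered 2 and 3 alone its difference was 0.81 in Cs plants and 0.65 in control plants. Neither was called (limma, adjusted p = 0.0623 and 0.122).

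The third comparison asked which genes differed between Cs and control shoots. TBL34, a xylan acetyltransferase gene, had the smallest p of the 35 genes. It had 16.04, 16.5 and 21.4 in control shoots and 20.7, 28.3 and 33.8 in Cs shoots. Cs replicate 1 lay just under the highest control, so the groups overlapped, and the difference was 0.40 ± 0.17 (limma, adjusted p = 1). XTH18 had 2.26, 1.04 and 1.52 in control shoots and 7.41, 9.34 and 4.44 in Cs shoots. All 3 Cs arrays were above the controls, at signals near the floor, and the difference of 0.51 ± 0.29 became 1.15 or 0.16 with a pseudocount of 2.75 or 44. EXPA4, with 267, 193 and 223 in Cs shoots, had 0.24 ± 0.21. EXPA9, with 76.0, 91.3 and 91.9 in Cs shoots, had 0.22 ± 0.19. On the lower side TBL38 went from 73.9, 52.0 and 60.8 in control to 57.8, 40.8 and 53.8 in Cs shoots, -0.24 ± 0.16. TBL45 had 129.8, 179.9 and 154 in Cs shoots, -0.23 ± 0.18. EXLB1 had 193, 69.3 and 123 in control and 147, 55.9 and 73.0 in Cs shoots, -0.44 ± 0.39, and TBL18 had -0.14 ± 0.16. The EXLB1 difference was -0.11 without control shoot replicate 1 and -0.80 without Cs shoot replicate 1. Each of these genes overlapped with its controls except XTH18, and none was called. Within same-numbered pairs of shoot arrays, the Cs array was higher in all 3 pairs for 6 of the 35 genes (EXPA4, EXPA9, EXPB2, XTH18, TBL28 and TBL34) and lower in all 3 for 4 (EXLB1, EXPB3, XTH19 and TBL38). Of all tested probe sets 15.7% and 11.3% did so.

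By limma 0 of the 35 genes passed in shoots, as did 0% of all tested probe sets, and 1 of the 35 had an unadjusted p under 0.05, against 2.09% of all. In a fit of the shoot arrays alone with the replicate block, 2 had such a p, EXLB1 and XTH18, against 6.02% of all, TBL34 having an unadjusted limma p of 0.055, and 0 passed the correction. The 3 Cs shoots lay above the controls for 1 of the 35 genes and below them for 0, where 4.20% and 2.15% of all tested probe sets did so. The 35 differences ran from -0.44 to 0.51 with a median of 0.04, beside 0.012 for all. Their 95% confidence intervals, not adjusted for the number of probe sets, had a median half-width of 0.49. The half-width differs from gene to gene, and changes within a gene's own half-width were in general not detectable. The 0.51 of XTH18 is such a case, with an interval from -0.12 to 1.14.

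The fourth comparison asked the same of roots, where TBL34 again had the smallest p. It had 34.4, 42.0 and 38.6 in control roots and 53.3, 66.9 and 56.9 in Cs roots. Every Cs root was above every control root, and the difference was 0.50 ± 0.17 with a 95% confidence interval from 0.13 to 0.88 (limma, unadjusted p = 0.0121, adjusted p = 1). The shoot and root contrasts of TBL34 use different arrays, although same-numbered arrays of the organs were taken as paired. TBL34 had a higher Cs mean in each but passed the correction in neither. It was tested through root alone, and its control shoots lay under the shoot filter level of 27.97. Leaving out single arrays kept its root difference between 0.43 and 0.56 and its shoot difference between 0.29 and 0.54. EXPB1 had 34.4, 67.8 and 38.6 in control and 70.0, 65.0 and 87.0 in Cs roots, 0.59 ± 0.33. XTH33 had 54.8, 41.9 and 37.7 in Cs roots, 0.38 ± 0.29, and TBL30 had 52.8, 61.2 and 56.8 in Cs roots, 0.27 ± 0.24. The lower genes by smallest p were EXPA9 with 237, 126 and 151 in Cs roots (-0.21 ± 0.19), EXPA8 (-0.25 ± 0.23), TBL35 (-0.12 ± 0.16) and EXPB2 (-0.25 ± 0.33). All of these overlapped with their controls. The direction of EXPB2 turned without control root replicate 1, to 0.14.

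In roots 0 of the 35 genes passed by limma, as did 0% of all tested probe sets, and 1 of the 35 had an unadjusted p under 0.05, against 3.80% of all. The 3 Cs roots lay above the controls for 3 of the 35 (TBL34, XTH16 and TBL32) and below them for 0, where 4.57% and 4.32% of all tested probe sets did so. TBL32 had 34.8, 24.5 and 28.0 in control and 37.1, 43.4 and 40.4 in Cs roots, 0.36 ± 0.42. XTH16 had 112, 118 and 115 in Cs roots, only slightly above the controls, and a difference of 0.18 ± 0.22. Of the 7 XTH genes 6 had a log2 difference above 0 between Cs and control roots, with a median of 0.24. Of the 13 expansins 9 had one below 0, with a median of -0.053. The TBL genes had a median of -0.035, where all tested probe sets had 0.00095. Of the 15508 tested probe sets 7791 were above 0 and 7717 below. The signs of XTH20 in root and XTH21 in shoot turned when array medians were centred or values were quantile normalized, and those of 4 other genes under 1 of these scalings, all of them near 0. The sign of EXPB3 in the difference between organs turned under both.

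Cs root replicate 2 had a median signal of the 6 photosynthesis genes of 487, against 62.6 to 177 in the other 5 root arrays. The shoot genes EXPA8 and XTH32 stood at 14.2 and 45.3 in that array, inside the range of the other roots. Of the other shoot genes, TBL45 was higher there than in any other root array, at 71.5, and TBL26 lower, at 21.7. EXPA7 had 131, 55.8 and 124 and EXPA18 171, 82.7 and 158 in Cs roots, each lowest in replicate 2. Other root genes went both ways in that array. For example, EXPA4, EXPA9 and TBL36 were lower there than in any other root array, and TBL34, TBL35 and TBL38 higher. Without that array the root difference of TBL34 was 0.43 and that of EXPA9 -0.032. In the organ comparison of Cs plants, leaving it out gave 1.79 for EXPA7 and 1.95 for EXPA18, beside 1.44 and 1.65 with it. EXPA8 had -4.70 without it and XTH32 -2.59, and all 4 genes were still called.

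The test of whether the exposure difference itself differed between root and shoot called 0 of the 35 genes and 0% of all tested probe sets. None of the 35 had an unadjusted limma p under 0.05, against 2.20% of all. EXPA9 had the smallest p, being higher in Cs shoots and lower in Cs roots, with a difference, root minus shoot, of -0.43 ± 0.27. EXPB2 had -0.57 ± 0.47, EXPA4 -0.33 ± 0.30 and EXPA8 -0.35 ± 0.32. On the other side were TBL38 with 0.34 ± 0.23, EXPB1 with 0.63 ± 0.47, EXLB1 with 0.54 ± 0.55 and TBL45 with 0.20 ± 0.26. Those of EXPB1 and EXLB1 were 0.25 and 0.22 without control shoot replicate 1, and 0.91 and 0.90 without Cs shoot replicate 1. The median half-width of the 95% confidence interval was 0.70.

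**Figure D3:**
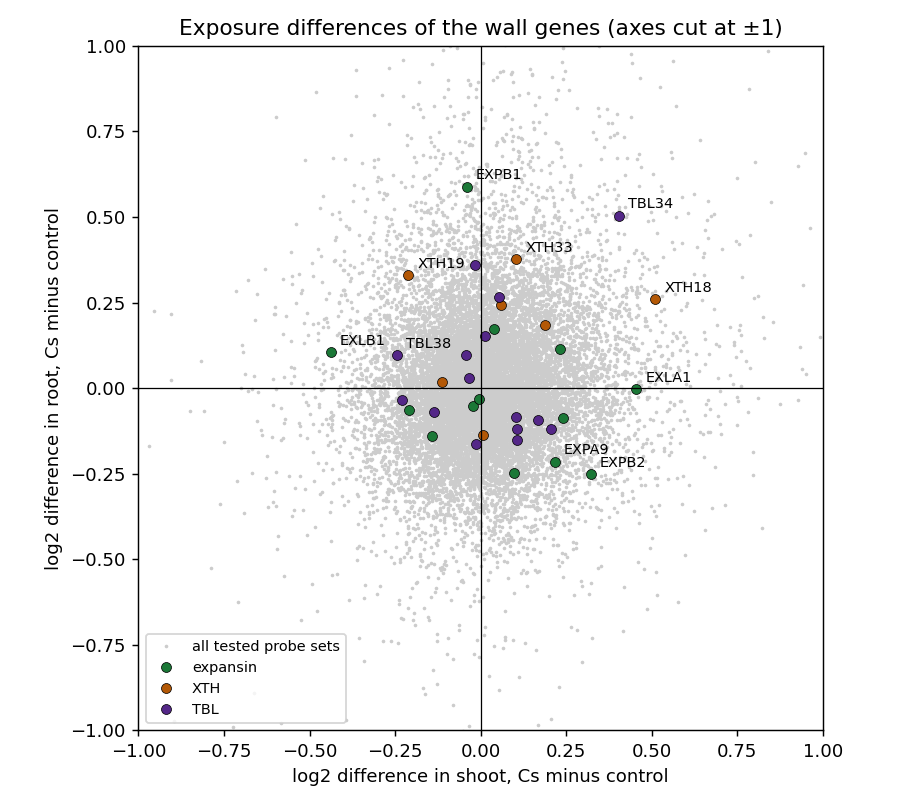
Log2 difference of Cs minus control in shoot (horizontal axis) and in root (vertical axis) for the 35 tested genes, coloured by family, over all tested probe sets in grey, with both axes cut at 1 on either side of 0. TBL34 lies at 0.40 in shoot and 0.50 in root, and none of the genes was called in either organ.

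In shoots the arrays numbered 1 differed from the rest by more than Cs shoots did from control shoots in 26 of the 35 genes, and in 71.7% of all tested probe sets. These arrays were both above the other 4 for 15 of the 35 genes and both below for 5, where 19.2% and 21.8% of all tested probe sets did so. The labels do not say what the number stands for, and these values are a description with no test. TBL26 had 307, 68.4 and 75.9 in control and 366, 71.2 and 57.8 in Cs shoots, so that both arrays numbered 1 were far above the other 4. XTH32 showed the same split, as given above, with both arrays numbered 1 far above the other 4. EXPA16 had 182, 49.8 and 71.8 in Cs shoots, again with number 1 the highest, as in control shoots. The log2 difference of number 1 from numbers 2 and 3 was 2.13 for TBL26, 1.68 for XTH32 and 1.09 for EXPA16.

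Expansins made up 7 of the 15 genes high in the shoot arrays numbered 1: EXPA4, EXPA7, EXPA15, EXPA16, EXPB1, EXPB3 and EXLB1. The 13 tested expansins had a median log2 difference by number of 0.61, the 15 TBL genes of -0.01 and the 7 XTH genes of 0.074, against -0.02 over all tested probe sets. EXPB1 had 235, 108 and 94.5 in control and 198, 93.2 and 119 in Cs shoots, and EXPB3 had 553, 229 and 285 in control and 429, 219 and 284 in Cs shoots. In both genes the arrays numbered 1 were the highest of each exposure group. The 5 genes low in these arrays were EXLA1, TBL18, TBL32, TBL36 and TBL39. EXLA1 had 3.51, 21.5 and 20.5 in control and 2.88, 60.3 and 27.6 in Cs shoots, and TBL36 had 41.1, 88.9 and 122 in control and 59.1, 87.2 and 114 in Cs shoots. Both genes were thus lowest in number 1 of either group. The root marker PYK10 was also lower in both shoot arrays numbered 1, with a log2 difference of -0.77 from numbers 2 and 3. Genes called for root in control plants went both ways. TBL18, TBL36 and TBL39 were low in these arrays, but EXPA4, EXPA7, EXPA15, EXPB3, XTH19, TBL16, TBL28, TBL30 and TBL37 were high in them. The part of root tissue in these values was not tested. The median absolute difference over the 35 genes was 0.46 by number and 0.11 by exposure in shoots, where all tested probe sets had 0.24 and 0.11.

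In roots, the arrays numbered 1 were both above the other 4 for 7 of the 35 genes and both below for 2, where 10.9% and 13.7% of all tested probe sets did so. The 7 were EXPA8, EXPA9, EXPB3, XTH18, XTH19, XTH33 and TBL28. XTH19 had 247, 106 and 89.4 in control and 323, 132 and 115 in Cs roots, a difference by number of 1.28. XTH18 had 134, 73.8 and 70.7 in control and 157, 124 and 65.2 in Cs roots, with number 1 again the highest in both groups. EXPB3 was high in number 1 in roots as in shoots, with 883, 575 and 634 in control and 794, 543 and 556 in Cs roots. XTH26 (AT4G28850), which is known from root hairs and was too dim to be tested, had 42.3, 22.3 and 2.95 in control and 54.2, 23.3 and 3.38 in Cs roots, and between 0.685 and 2.04 in shoots. Its root signals ran in the same order by number in both exposure groups, with number 1 the highest. The median absolute difference over the 35 genes in roots was 0.23 by number and 0.14 by exposure, where all tested probe sets had 0.17 and 0.13. By number it was the larger in 26 of the 35 genes and in 58.6% of all tested probe sets.

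**Figure D4:**
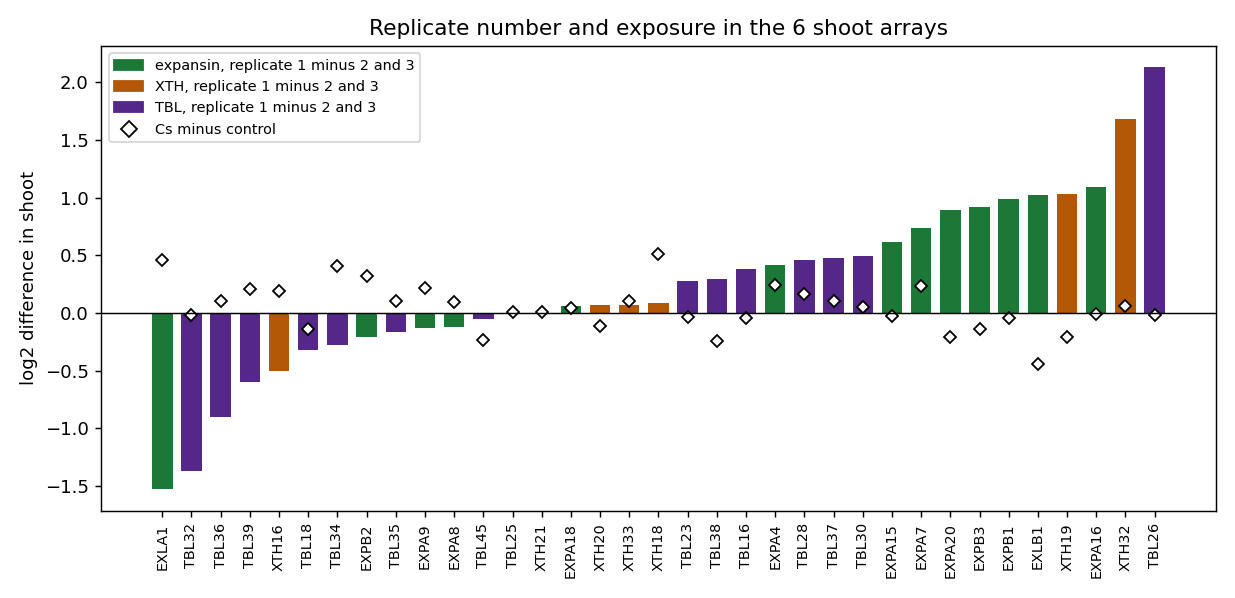
Log2 difference of the shoot arrays numbered 1 from those numbered 2 and 3 (bars, coloured by family) and of Cs from control shoots (open diamonds) for the 35 tested genes, ordered by the bars. The bars run from -1.53 for EXLA1 to 2.13 for TBL26, and the diamonds stay between -0.44 and 0.51.

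Neighbouring genes gave a further view of how members vary. In the order of protein-coding genes of the TAIR10.1 RefSeq table, 4 pairs of the 49 genes lie next to each other: XTH18 and XTH19, TBL28 and TBL30, EXLA1 and EXLA3, and TBL19 and TBL21. Both genes were tested in 2 pairs, with control organ differences of 2.99 and 2.34 for XTH18 and XTH19 and of 0.66 and 1.06 for TBL28 and TBL30. XTH18, XTH19 and TBL30 were tested through root alone, so nothing is read from their shared direction. XTH18 and XTH19 were also both high in the root arrays numbered 1. TBL28 and TBL30 parted there, TBL28 having 0.44 and TBL30 -0.20 by number. EXLA3 had 1.40, 1.503 and 2.52 in control shoots and 11.8, 11.9 and 24.0 in control roots, too dim to be tested. TBL21 had 1.02, 1.86 and 2.32 in control shoots and 20.3, 17.5 and 31.9 in control roots. Its neighbour TBL19 had 22.6, 12.0 and 8.94 in control shoots and 17.6, 8.90 and 17.5 in control roots, with overlap. The XTH18 and XTH19 sequences are related, and how far their probes share signal cannot be read from these values.

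Of the 49 genes, 14 were too dim for the test in both organs: EXLA2, EXLA3, EXPA21, EXPA24, EXPB5, XTH26, XTH29, TBL15, TBL19, TBL20, TBL21, TBL41, TBL42 and TBL43. Their group means lay between 0.963 and 31.0. EXPA21 and EXPA24 stayed under 9 on all arrays. EXPB5 had 23.4 ± 5.01 in control and 31.0 ± 10.7 in Cs roots (mean ± SD, n = 3). TBL20 (AT3G02440) had 25.5, 15.5 and 21.1 in control shoots and 0.661, 2.85 and 13.3 in control roots, so the organs did not overlap although the gene was not tested.

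Other genes that build the same polymers were taken from a list of 47 wall genes. In the annotation used 7 of them have a probe set of their own, and all 7 were tested. In control plants 0 of the 7 were called higher in root and 2 higher in shoot, where 38.0% and 22.3% of all tested probe sets were called. The 2 were CSLC8 with -0.49 ± 0.14 (limma, adjusted p = 0.011) and CSLC4, which makes the glucan backbone of xyloglucan, with -0.53 ± 0.19 (adjusted p = 0.0282). CSLC4 had 240.1, 273 and 249 in control shoots and 204, 155 and 161 in control roots, and its call was lost on leaving out any of 4 control arrays. All 7 differences lay between -0.53 and 0.26. In Cs plants 2 of the 7 were called higher in root and 1 higher in shoot, where 36.1% and 21.9% of all were called. IRX10 had 0.55 ± 0.15 (limma, adjusted p = 0.00705), CSLC6 0.44 ± 0.16 (adjusted p = 0.0349) and CSLC8 -0.57 ± 0.14 (adjusted p = 0.00489), while CSLC4 was not called (adjusted p = 0.0641). In the exposure contrasts 0 of the 7 passed. IRX10, which extends the xylan backbone, had 71.6, 82.2 and 101 in control and 109.9, 112 and 113 in Cs roots, with no overlap and a difference of 0.36 ± 0.15 (limma, adjusted p = 1). COB, which is needed for oriented cellulose deposition, had -0.11 ± 0.16 in roots. CSLC6 and CSLC8 had -0.28 ± 0.16 and 0.18 ± 0.14 in shoots, and the difference between organs in the exposure contrast was 0.37 ± 0.23 for CSLC6 and 0.29 ± 0.21 for IRX10.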

How the data were processed

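RNA of shoots and roots of control and Cs plants was measured on 12 ATH1 arrays, 3 per group, with groups and replicate numbers taken from the sample titles. The deposited values are intensities, MAS5 signals on a linear scale, per the submitters' processing notes. In the file each array has a 2% trimmed mean of 100.0. The genome build was not given in the sources used here. Scanner files were not used here, so detection calls and scan batches were not analysed, and signal over background limits what dim probe sets show.

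Probe sets were named from the platform annotation where it gives 1 gene (13513 probe sets; 503 have several and 8730 none), and all 49 members matched the TAIR10.1 RefSeq gene table with the same symbol. Values were taken as log2(signal + 11), where 11 is the rounded product of 0.25 and the median of array medians. After removal of 64 control probe sets, those whose mean log2 value in at least 1 organ reached its 40th percentile (a signal of 27.97 in shoot and 31.23 in root) were kept. limma 3.58.1 in R 4.3.3 (lmFit, eBayes with an intensity trend) was fitted to all 12 arrays with 4 group means and 8 residual degrees of freedom, with Benjamini-Hochberg adjustment over 15508 probe sets and a threshold of 0.05. Tests were two-sided. The steps were tested on simulated data. There were 0 identical pairs of arrays. Alternatives were another pseudocount, filter, scaling, variance prior, array weights, arrays left out and the replicate number as a block.

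Deviations from the group means of same-numbered arrays correlated at 0.231, 0.179 and 0.103 between organs in control plants, 0.283, 0.152 and 0.19 in Cs plants, and 0.71, 0.415 and 0.453 between exposure groups in shoots. All exceed 0.1, so the numbers were taken to pair these arrays, on the data and not on the labels. Some arrays numbered 2 and 3 also correlated with each other. Cs shoot 2 had 0.368 with control shoot 3, and Cs shoot 3 had 0.203 with control shoot 2. Control root 2 had 0.0997 with control shoot 3. For numbers 2 and 3 the pairing thus rests on small margins.

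Values in every array are given by rule for, in each family, the 5 called genes with the largest organ difference in each direction and the 3 with the highest mean signal, and over all families the 4 with the smallest p in each direction of each exposure contrast. Of the other wall genes, the 3 with the largest called organ difference in each direction and the 2 with the smallest p in each exposure contrast are given. TBL16, TBL18, TBL20, TBL21, TBL23, TBL32, TBL38, EXLA1, EXLA3, EXPA20 and XTH26 were added in places after their values were seen, as were the neighbour pairs, the view by replicate number and the sign within pairs of shoot arrays. The members and lists were chosen with earlier results of these data known.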

Additional observations from a re-analysis of the deposited data

How the results depend on the processing

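Of the 1752 values recomputed under alternatives, 1703 kept their direction and their side of the threshold or, for counts and medians, stayed close to the reported value. Among the rest, 25 organ calls of named genes were lost, 6 were gained, 16 counts or medians moved and 2 values reversed. The count of members called was 0 in the exposure contrasts under all alternatives run. In control plants 17 to 24 members were called for root (19 to 23 on leaving out 1 array) and 6 to 8 for shoot, and in Cs plants 17 to 24 and 5 to 8. Over all probe sets, Cs against control roots had 0 past the threshold in the reported analysis, 1 with a pseudocount of 44, 5 with arrays numbered 2 and 3 alone, and 0 to 7 on leaving out 1 array (7 without Cs root replicate 1). The reversed values were those of EXPB2 in roots, which lay between -0.71 and 0.14 on leaving out 1 array (0.14 without control root replicate 1) and at 0.00072 with arrays numbered 2 and 3. The cause was not tested. Centring array medians moved the median organ difference of all probe sets by -0.105 in control and -0.122 in Cs plants and turned the organ direction of 0 members.

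Same-numbered root arrays of the exposure groups correlated at 0.469, -0.02 and 0.403 in their deviations. Numbers 1 and 3 thus exceed 0.1, but number 2, which includes Cs root replicate 2, does not. The root arrays were therefore not taken as paired by number throughout. A fit of the root arrays alone with the replicate block had 11 probe sets and 0 members past the threshold. In that fit 3 members, EXPB1, XTH19 and TBL34, had an unadjusted limma p under 0.05, against 8.14% of all tested probe sets. The block changed no other call of a member than those given beside their results. The size of an organ difference moves with the pseudocount (2.75 or 44) where 1 organ is dim, as in XTH18 and XTH21, and also in XTH19 (2.83 or 1.51), EXPA7 (1.88 or 0.97), EXPA8, EXPA16 and XTH20.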

Other observations

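A pair of probe sets that the annotation assigns to several expansin genes, 1 to EXP26 and EXPA22 and 1 to EXPA25 and EXPA23, were left out of the members. Both were dim, with group means under the filter in both organs, and were not tested.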
